A study of Mus musculus with 6 samples.

Results

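The chemokine ligand transcripts described here are Ccl2, Ccl3, Ccl4, Ccl5, Ccl6, Ccl7, Ccl9, Ccl12, Cxcl10 and Cxcl16, 10 genes matched by symbol among the 54532 genes counted in BV2, an immortalised line of mouse microglia. They were read in 3 libraries labelled SMEK1 knockdown and 3 labelled WT, from cultures of the same line in serum-containing medium with no labelled stimulus. SMEK1 is a regulatory subunit of protein phosphatase 4, listed in the table as Ppp4r3a. The design text of the series names both groups as knockdown derivatives, and whether the WT cells carry a control construct, and whether the knockdown cells are 1 clone, is not stated in the sources read here. Nor do the labels say whether a group's libraries are separate cultures, so the p-values may reflect technical spread between libraries alone. Any other difference between the 2 sets of cells cannot be told apart from the knockdown, and in bulk RNA fewer cells expressing a gene cannot be told apart from less RNA per cell. Values of 3 libraries are given in the order A, B, C.

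Chemokines are small secreted proteins that steer leukocytes by binding G protein-coupled receptors, and they are grouped as CC or CXC by the spacing of their first cysteines. Microglia and macrophages make them at rest and in larger amounts after Toll-like receptor, NF-kappaB or interferon signalling. CCL2, CCL7 and CCL12 act on CCR2, which draws monocytes. CCL3 and CCL5 act on CCR1, and CCL4 is a close relative of CCL3. CCL6 and CCL9 are rodent ligands of CCR1. CXCL10 is the interferon-inducible ligand of CXCR3, and CXCL16 is a membrane-anchored ligand of CXCR6.

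Total counts were 18627425 to 21131557 in the knockdown libraries and 18036591 to 18708438 in the WT libraries, so that a single count was worth 0.0444 to 0.0597 CPM (counts-per-million, TMM-scaled). The target gene Ppp4r3a had 48, 122 and 94 counts across the knockdown libraries, against 335, 227 and 260 across the WT libraries. Across genes, Pearson's r of log2(CPM + 1) was 0.989 to 0.995 for libraries of 1 group and 0.961 to 0.973 for libraries of different groups, where genes are not independent replicates. Of 17 microglia and macrophage markers 15 were expressed enough to be tested, 4 higher and 5 lower in the knockdown. Over all genes tested 20.5% were higher and 19.6% lower. The summed level of the markers was 2432 to 2757 FPKM in the knockdown libraries and 2901 to 3271 FPKM in the WT libraries. Its largest parts were Tyrobp (mean 1273 FPKM in the knockdown, 1534 in WT) and Cd68 (674 and 875), while others such as Trem2 were higher (194 and 152). Among the defining microglial markers, P2ry12 had 0 counts over the knockdown libraries and 3 over WT, and Cx3cr1 had 29 over the knockdown libraries and 12 over WT. Markers of other cell types stayed low: the endothelial list, the highest of them, summed to 2.91 to 3.96 FPKM in the knockdown and 1.47 to 2.14 FPKM in WT, almost all of it Flt1, with Cldn5 and Cdh5 at 0 counts. The part of these marker differences in the results below was not tested.

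The upstream sequence of 3 members is shown because they represent a ligand that was lower in the knockdown and carries NF-kappaB and interferon motifs, a ligand with an NF-kappaB motif that was not called, and the most abundant ligand, which was not called either. RefSeq promoter windows (GRCm38.p6) were matched by symbol for 5 of the 10 members, Ccl3, Ccl6, Ccl9, Ccl12 and Cxcl10. Cxcl10 was the only called member among them, as the called members Ccl2, Ccl4 and Ccl5 had no window. Motifs are therefore not compared with calls. Each sequence is the 250 bases before the start site, 5′ to 3′ on the minus strand that carries the gene, and capitals mark matches, on either strand, to the kappaB consensus, to the interferon-stimulated response element (ISRE, searched as a pair of TTTC with any 2 bases between them) or to TATAAA. The windows lie at chr5:92348890-92349139 for Cxcl10, chr11:83578637-83578886 for Ccl9 and chr11:83649379-83649628 for Ccl3. For Ccl3 the start site of the RefSeq window lies 23 bases upstream of the gene start given below.
Cxcl10: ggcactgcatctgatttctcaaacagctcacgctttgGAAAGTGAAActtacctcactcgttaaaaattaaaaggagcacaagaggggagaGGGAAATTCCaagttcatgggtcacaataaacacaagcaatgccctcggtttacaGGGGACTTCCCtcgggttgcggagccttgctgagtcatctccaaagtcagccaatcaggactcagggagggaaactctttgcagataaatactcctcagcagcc
Ccl9: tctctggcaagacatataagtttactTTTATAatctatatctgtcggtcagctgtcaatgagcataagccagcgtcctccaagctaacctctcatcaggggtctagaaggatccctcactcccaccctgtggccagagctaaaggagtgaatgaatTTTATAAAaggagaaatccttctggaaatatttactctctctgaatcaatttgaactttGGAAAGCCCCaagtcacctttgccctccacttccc
Ccl3: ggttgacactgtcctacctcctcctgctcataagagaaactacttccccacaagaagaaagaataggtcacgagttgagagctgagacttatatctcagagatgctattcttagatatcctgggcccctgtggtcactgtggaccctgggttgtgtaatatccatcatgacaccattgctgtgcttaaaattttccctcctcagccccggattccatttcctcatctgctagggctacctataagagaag

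The Cxcl10 window held an ISRE match beginning at -213 and kappaB matches beginning at -159, -104 and -103 from the start site, the matches at -104 and -103 overlapping each other, and an AP-1 match (searched as TGANTCA) at -74 that is not in capitals. The Ccl9 window held a kappaB match at -35, an AP-1 match at -53 and TATAAA matches on both strands, a pair of which overlap. The Ccl3 window held no match to any of these motifs. Over windows of 300 bases that also include 50 bases after the start site, kappaB matches occurred in 8.46% of the 32817 promoters in the table, ISRE matches in 3.43%, AP-1 matches in 7.81% and TATAAA in 13.6%. Among the 5 members with a window, kappaB and AP-1 matches were found in Ccl9 and Cxcl10, the ISRE in Cxcl10, and TATAAA in Ccl9 and Ccl12. These matches describe letters and not binding.

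In the SMEK1 knockdown libraries Ccl5, Cxcl10 and Ccl2 fell, Ccl4 rose, and Ccl3, by far the most abundant of these transcripts, showed no called difference. Ccl5 was left at 11.4% of its WT level, Cxcl10 at 15.5% and Ccl2 at 41.4%, while Ccl4 reached 143%. Ccl6, Ccl7 and Ccl9 were tested and not called, and Ccl12 and Cxcl16 had too few counts to be tested. The 4 calls over 8 tested members stand beside a background in which 40.1% of the 12269 genes tested were called, 20.5% higher and 19.6% lower in the knockdown. The libraries of the groups did not overlap for 5 of the 8, against 50.9% of all genes tested. Cxcl10 and Ccl5 passed the filter on low counts through WT, since 0 and 1 of their 3 knockdown libraries reached its level of 0.536 CPM, so nothing is read from these shares about the ligands as a set.

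**Figure D1:**
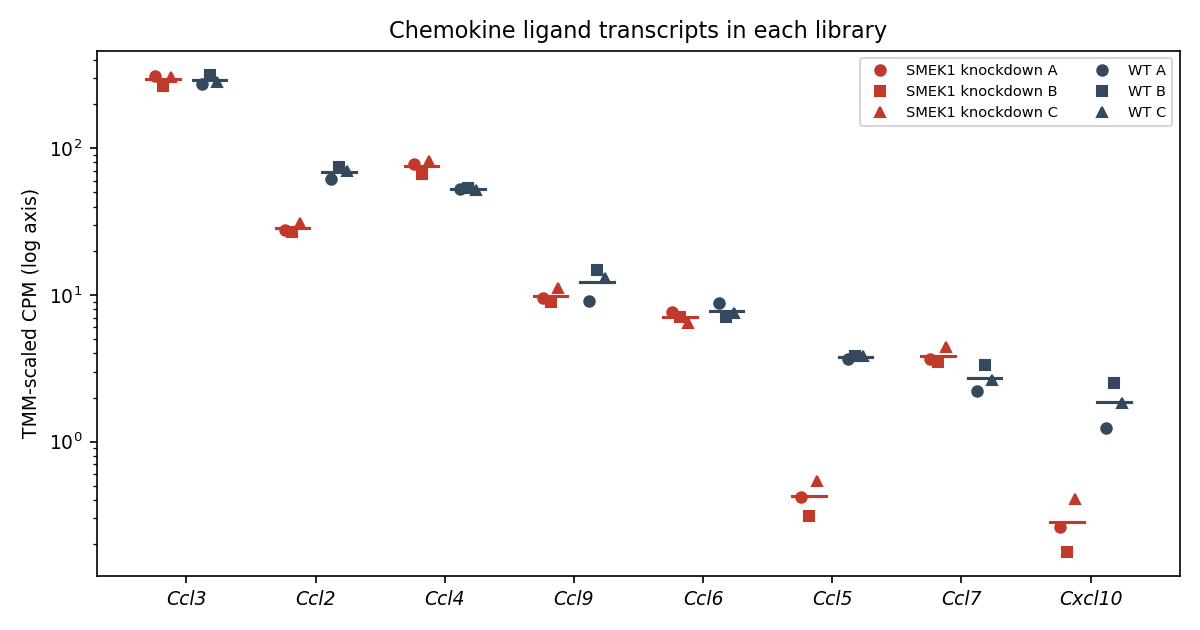
TMM-scaled CPM (y axis, log scale) of the 8 tested ligands (x axis, ordered by WT mean) in each SMEK1 knockdown library (red, left of each pair) and WT library (dark, right), with bars at the group means. The groups are apart for Ccl2, Ccl4, Ccl5, Ccl7 and Cxcl10 and overlap for Ccl3, Ccl6 and Ccl9.

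**Figure D2:**
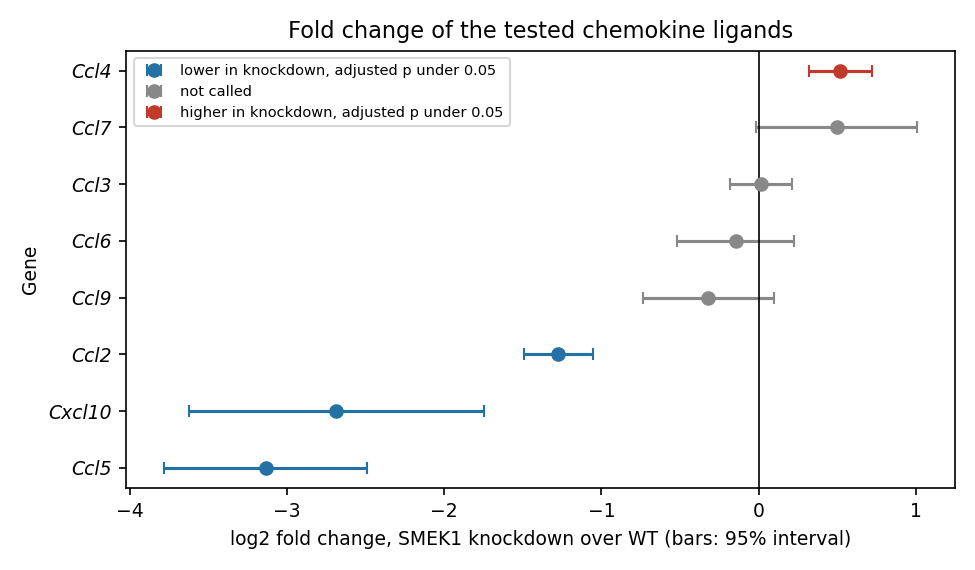
Log2 fold change of SMEK1 knockdown over WT (x axis) with its 95% interval for each tested ligand (y axis), coloured by call at an adjusted p under 0.05. Ccl5, Cxcl10 and Ccl2 lie wholly below 0, Ccl4 wholly above it, and the intervals of Ccl3, Ccl6, Ccl7 and Ccl9 cross it.

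Among the ligands of CCR2, Ccl2 fell and its neighbour Ccl7 was not called. Ccl2, the main monocyte attractant (ENSMUSG00000035385, chr11:82035571-82037453, plus strand, GRCm38), had 27.9, 26.8 and 30.7 CPM across the knockdown libraries, against 62.1, 74.5 and 70.1 CPM across the WT libraries. All knockdown libraries were below all WT libraries, and the means were 28.5 ± 2.01 CPM in knockdown cells and 68.9 ± 6.30 CPM in WT cells (SD, n = 3 each). Its log2 fold change came to -1.27 (SE 0.10; edgeR quasi-likelihood, adjusted p = 2.29e-06).

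Ccl7 (ENSMUSG00000035373, chr11:82045712-82047525, plus strand) starts 8.26 kb past the end of Ccl2 and encodes a ligand of the same receptor. It had 3.66, 3.47 and 4.43 CPM across the knockdown libraries, against 2.21, 3.34 and 2.65 CPM across the WT libraries. The groups did not overlap, though knockdown B lay only just above WT B. Its log2 fold change came to 0.50 (SE 0.23, adjusted p = 0.112), a fold of 1.41 with a 95% interval of 0.990 to 2.01. The difference was past the threshold with library totals in place of TMM (log2 fold change 0.66, adjusted p = 0.0354) and with limma on log2(FPKM + 1) (0.0479) or log2(FPKM + 0.1) (0.0482), while leaving out single libraries gave adjusted p-values of 0.0706 to 0.315.

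Within each library the ratio of Ccl2 to Ccl7 counts does not depend on scaling between libraries. It was 7.63, 7.74 and 6.94 across the knockdown libraries, against 28.0, 22.3 and 26.5 across the WT libraries. The mean ratio was 7.44 ± 0.435 in the knockdown and 25.6 ± 2.98 in WT (SD, n = 3 each), a log2 difference of -1.78, or 3.43-fold less Ccl2 per Ccl7. The exact two-sided permutation test gave p = 0.1, the smallest that 3 libraries against 3 allow.

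Ccl12, the remaining gene of this group (chr11:82101845-82103400, plus strand), was near silent, with 1 count in each knockdown library and 0, 4 and 2 counts across the WT libraries. The totals of 3 counts in the knockdown and 6 in WT gave a depth-scaled ratio of 0.410 with a 95% counting interval of 0.0663 to 1.92, and no difference was detectable at this depth. Ratios to Ccl12 were not computed because of its 0 count. Intervals of this kind cover counting error only. The receptor gene Ccr2 had 0 counts over the knockdown libraries and 1 over WT.

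Among Ccl3, Ccl4 and Ccl5, Ccl4 rose, Ccl5 fell and Ccl3 was not called. Ccl3, also called MIP-1 alpha (ENSMUSG00000000982, chr11:83647844-83649355, minus strand), had 312, 267 and 305 CPM across the knockdown libraries, against 275, 317 and 283 CPM across the WT libraries. The groups overlapped throughout, with the lowest value in knockdown B and the highest in WT B. Its log2 fold change came to 0.01 (SE 0.09, adjusted p = 0.909), with a 95% interval of the fold from 0.883 to 1.16. With library totals it was 0.17 (adjusted p = 0.0428), close to the shift of 0.159 that this scaling gave the median gene. By length-corrected level Ccl3 ranked 171st of the 12269 tested genes in the knockdown and 198th in WT.

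Ccl4, also called MIP-1 beta (ENSMUSG00000018930, chr11:83662584-83664683, plus strand), lies 13.2 kb from Ccl3 on the opposite strand. It had 77.9, 66.4 and 82.4 CPM across the knockdown libraries, against 52.8, 53.5 and 51.6 CPM across the WT libraries. Every knockdown library was above every WT library, and its log2 fold change came to 0.52 (SE 0.09, adjusted p = 0.000927). The means were 75.5 ± 8.22 CPM in knockdown cells and 52.6 ± 1.00 CPM in WT cells (SD, n = 3 each). The ratio of Ccl3 to Ccl4 counts was lower in the knockdown, at 4.01, 4.02 and 3.70 across its libraries, against 5.20, 5.92 and 5.48 across the WT libraries. Its log2 difference was -0.50, with an exact permutation p = 0.1.

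Ccl5, also called RANTES, which attracts T cells and monocytes (ENSMUSG00000035042, chr11:83525778-83530518, minus strand), had 8, 7 and 12 counts across the knockdown libraries, against 68, 64 and 65 counts across the WT libraries. The levels were 0.424 ± 0.116 CPM in knockdown cells and 3.77 ± 0.0881 CPM in WT cells (SD, n = 3 each). The groups were far apart, and its log2 fold change came to -3.14 (SE 0.30, adjusted p = 9.97e-06), the largest fall among the tested members. Counting precision in the knockdown is low, since 27 counts carry the estimate, and its 95% interval ran from 0.0727 to 0.178 of the WT level. By FPKM it stood 10813th of the tested genes in the knockdown and 6499th in WT.

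**Figure D3:**
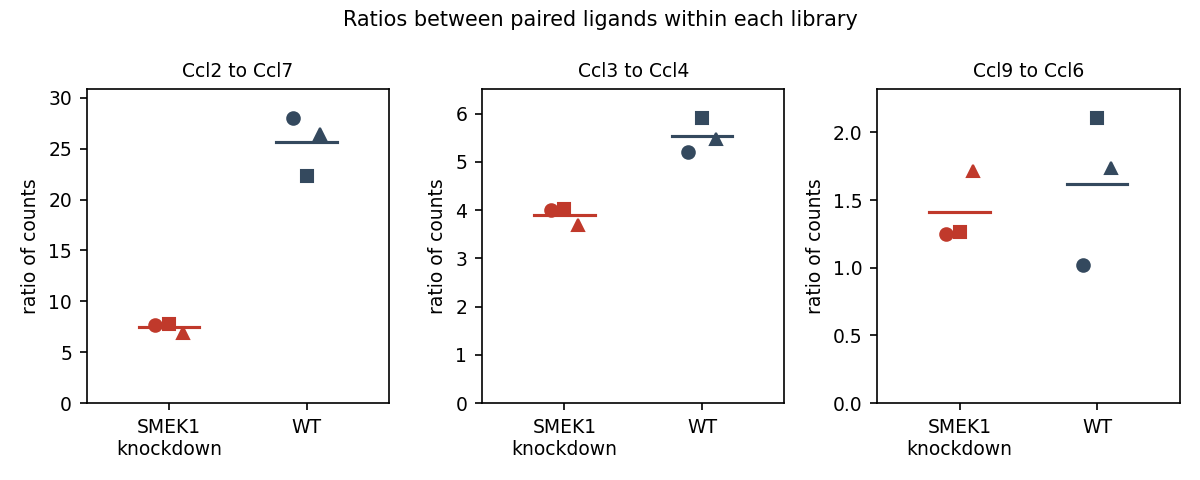
Ratio of counts (y axis, from 0) between paired ligands in each SMEK1 knockdown library (red, left) and WT library (dark, right), with bars at the group means. The Ccl2 to Ccl7 ratio is 6.94 to 7.74 in the knockdown and 22.3 to 28.0 in WT, the Ccl3 to Ccl4 ratio is also apart between groups, and the Ccl9 to Ccl6 ratio overlaps.

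The rodent CCR1 ligands Ccl6 and Ccl9 were not called. Ccl6 (ENSMUSG00000018927, chr11:83587882-83593087, minus strand) had 7.63, 7.11 and 6.46 CPM across the knockdown libraries, against 8.85, 7.04 and 7.53 CPM across the WT libraries. Its log2 fold change was -0.15 (SE 0.17, adjusted p = 0.524), with an interval of the fold from 0.698 to 1.17, and its sign turned with library totals (0.0076, adjusted p = 0.977). The antisense-strand transcript E230016K23Rik overlaps Ccl6, with 138 counts over the knockdown and 114 over WT. The sources do not state whether strand was used in counting. Of the 31-base words in Ccl6 transcripts, 1.02% occur on either strand in transcripts of other genes, so the annotated transcripts of the 2 genes share little sequence.

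Ccl9, also called MIP-1 gamma (ENSMUSG00000019122, chr11:83572919-83578636, minus strand), had 9.56, 8.97 and 11.1 CPM across the knockdown libraries, against 9.07, 14.9 and 13.1 CPM across the WT libraries. WT A lay among the knockdown values and the other WT libraries above them. Its log2 fold change came to -0.32 (SE 0.19, adjusted p = 0.205), with an interval of the fold from 0.600 to 1.07. Without WT A it was -0.50 (adjusted p = 0.0358), past the threshold. The Ccl9 to Ccl6 count ratio was 1.41 ± 0.263 in the knockdown and 1.62 ± 0.551 in WT (SD, n = 3 each; exact permutation p = 0.7). Their receptor gene Ccr1 fell to 1.76 ± 0.167 CPM in knockdown cells, against 13.3 ± 0.755 CPM in WT cells (SD, n = 3 each), with a log2 difference of -2.91 (SE 0.18, adjusted p = 3.81e-07).

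Of the CXC ligands, Cxcl10 fell and Cxcl16 was barely detected. Cxcl10, whose upstream sequence is given above (ENSMUSG00000034855, chr5:92346638-92348889, minus strand), had 5, 4 and 9 counts across the knockdown libraries, against 23, 42 and 31 counts across the WT libraries. The levels were 0.282 ± 0.116 CPM in knockdown cells and 1.86 ± 0.633 CPM in WT cells (SD, n = 3 each), and the groups did not overlap. Its log2 fold change came to -2.69 (SE 0.43, adjusted p = 0.000446), with a 95% interval of 0.0812 to 0.298 of the WT level. The gene Art3 overlaps it on the opposite strand with 14 counts over the knockdown and 9 over WT. Cxcr3, the receptor gene of CXCL10, was at 0.333 ± 0.171 CPM in knockdown cells and 1.59 ± 0.230 CPM in WT cells (SD, n = 3 each), with a log2 difference of -2.25 (SE 0.42, adjusted p = 0.00122). It too passed the filter through WT, since its knockdown libraries had 0.418, 0.444 and 0.136 CPM.

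Cxcl16 (ENSMUSG00000018920, chr11:70453983-70459984, minus strand) had 0, 4 and 2 counts across the knockdown libraries, against 6, 0 and 2 counts across the WT libraries. The depth-scaled ratio of its 6 counts in the knockdown to 8 in WT was 0.615, with a 95% counting interval of 0.176 to 2.02, and no difference was detectable at this depth. It overlaps Zmynd15, with 23 counts over the knockdown and 8 over WT, and 18.5% of its 31-base words occur in transcripts of other genes, so even these counts are uncertain. For the other 9 members at most 4.47% of such words were shared, and none were for Ccl2, Ccl3, Ccl4, Ccl7 and Ccl12. The sheddase genes that release CXCL16 from the membrane were not called, with log2 fold changes of -0.16 for Adam10 (adjusted p = 0.622) and -0.16 for Adam17 (adjusted p = 0.516).

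The summed level of the 10 ligands overlapped between groups, while the shares held by Ccl2, Ccl4, Ccl5, Ccl7 and Cxcl10 did not. These are the same members whose libraries were apart by CPM, and Ccl4 and Ccl2 held the largest of these shares. The sum of the FPKM values was 565, 472 and 558 across the knockdown libraries, against 508, 576 and 523 across the WT libraries. Ccl3, the largest part, made up 71.7 ± 0.935% of it in the knockdown and 70.8 ± 0.660% in WT (SD, n = 3 each). Ccl4 made up 21.3 ± 0.756% in the knockdown and 14.9 ± 0.862% in WT, and Ccl2 made up 4.67 ± 0.274% in the knockdown and 11.2 ± 0.503% in WT. The 8 members other than Ccl3 and Ccl4 together summed to 37.3 ± 2.92 FPKM in the knockdown and 77.1 ± 7.02 FPKM in WT (SD, n = 3 each). Most of that difference was Ccl2, at 24.8 ± 1.90 FPKM in the knockdown and 60.3 ± 5.40 FPKM in WT. Ccl6, Ccl7 and Ccl9 were not called, and Ccl7 went the other way. No test was made of these sums, whose members were chosen with earlier results known.

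**Figure D4:**
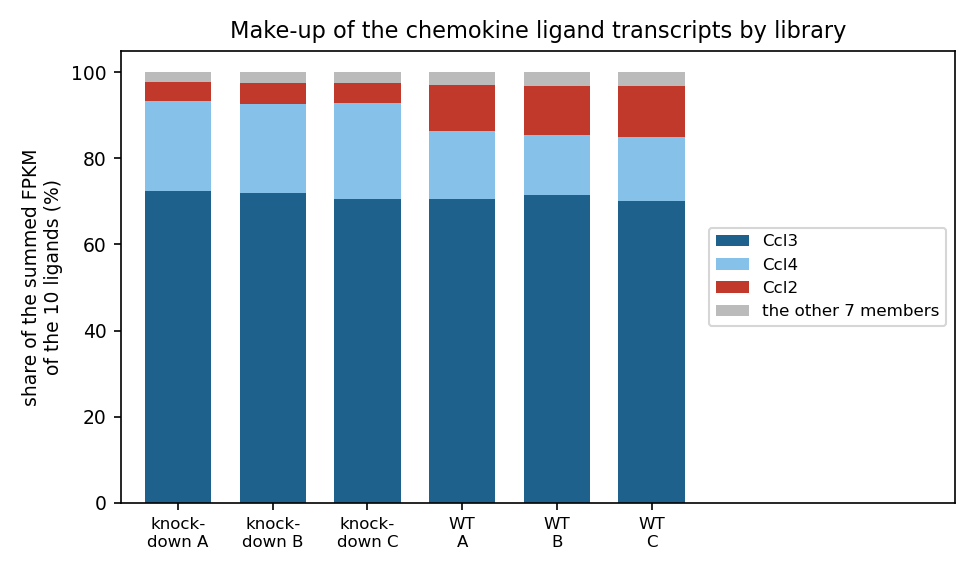
Share of the summed FPKM of the 10 ligands (y axis, percent) held by Ccl3, Ccl4, Ccl2 and the other 7 members in each SMEK1 knockdown and WT library (x axis). The Ccl2 band is 4.36 to 4.87% in the knockdown libraries and 10.7 to 11.7% in the WT libraries, and the Ccl4 band is wider in the knockdown.

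All members but Cxcl10 lie on chromosome 11, and 8 of them fall within 1.63 Mb, with Ccl2, Ccl7 and Ccl12 at one end and Ccl5, Ccl9, Ccl6, Ccl3 and Ccl4 at the other. In order of start, the log2 fold changes were -1.27 for Ccl2 and 0.50 for the uncalled Ccl7, then -3.14 for Ccl5, -0.32 for Ccl9, -0.15 for Ccl6, 0.01 for Ccl3 and 0.52 for Ccl4, and no test of a relation to position was made. Within this span and 250 kb to either side, 23 genes other than the ligands were tested, of which 2 were higher and 9 lower, with a median log2 fold change of -0.28. Over the 1035 tested genes of chromosome 11, 187 were higher and 205 lower, with a median of 0.01. Between the ends lies the Schlafen family of interferon-responsive genes, of which Slfn2 was lower, at 26.7 ± 3.88 CPM in knockdown cells and 139 ± 15.4 CPM in WT cells (SD, n = 3 each), with a log2 difference of -2.38 (SE 0.12; adjusted p = 6.46e-08). Slfn3, Slfn4, Slfn8 and Slfn9 were also called lower, with log2 fold changes of -2.50 to -1.06, though reads of such close paralogs may be split between them, and the knockdown means of Slfn4 (0.194 CPM) and Slfn8 (0.505 CPM) lie under the filter level of 0.536 CPM. Wfdc17, the first tested gene past Ccl4, was higher (log2 fold change 1.12, SE 0.16, adjusted p = 0.000179).

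**Figure D5:**
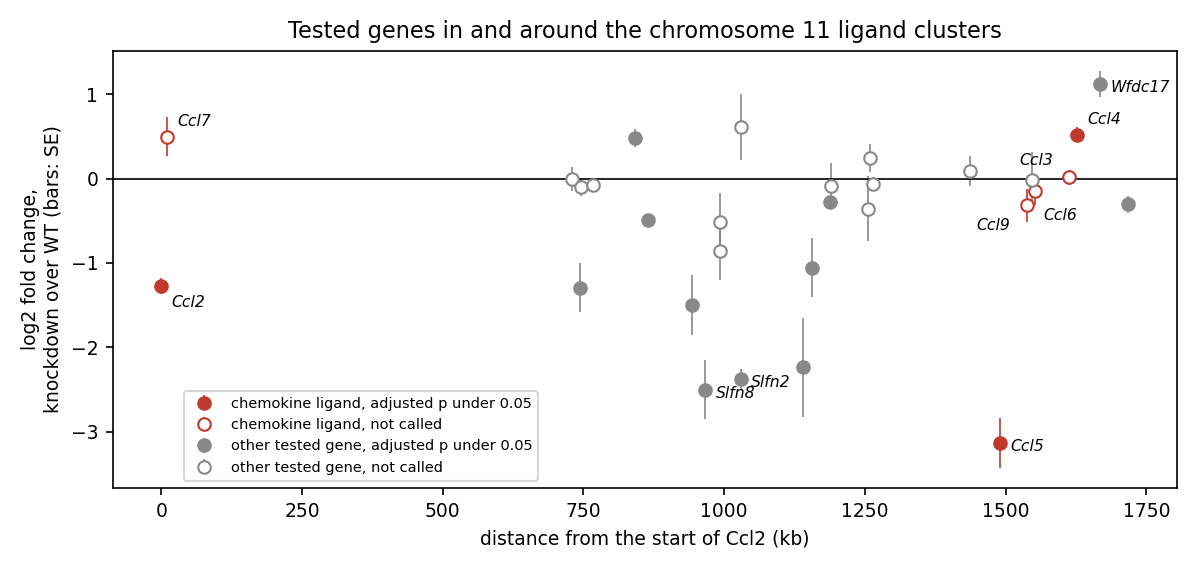
Log2 fold change of SMEK1 knockdown over WT with its SE (y axis) for each tested gene by distance from the start of Ccl2 in kb (x axis), ligands in red and other genes in grey, filled where called at an adjusted p under 0.05. Called ligands stand beside uncalled ones at both ends, and lower Schlafen genes lie between them.

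Most other members of the ligand family were silent or had too few counts to be tested. Of 31 further mouse chemokine ligands 26 had a single row in the table, and the others were left out. Of these 26, 12 had 0 counts in every library and 9 had some counts but too few to be tested. The remaining 5 were tested, of which 1 rose and 3 fell. Beside the 40.1% called over all genes nothing is read from so few, and Cxcl2 passed the filter through WT alone. Cxcl14, a CXC ligand of tissue macrophages and epithelia, rose to 108 ± 2.13 CPM in knockdown cells, against 50.8 ± 2.37 CPM in WT cells (SD, n = 3 each), with a log2 difference of 1.09 (SE 0.08, adjusted p = 9.90e-07). Pf4, which encodes platelet factor 4 and is also made by macrophages, fell to 178 ± 11.7 CPM in knockdown cells, against 263 ± 24.1 CPM in WT cells (log2 fold change -0.56, SE 0.09, adjusted p = 0.000404). Cxcl2, a neutrophil attractant, had 0, 4 and 2 counts across the knockdown libraries, against 20, 11 and 12 counts across the WT libraries (adjusted p = 0.00271). Ccl24 was the other that fell (log2 fold change -0.94, adjusted p = 0.0432), close to the threshold. These ligands called lower numbered 2 with DESeq2 in place of edgeR, with upper-quartile or library-total scaling, or at a threshold of 0.01. Leaving out single libraries gave 2 or 3.

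Of 24 chemokine receptor genes 4 were tested, 1 higher and 2 lower, the lower ones being Ccr1 and Cxcr3. That is 75% called beside 40.1% of all genes tested, and nothing is read from so few. Besides Ccr1 and Cxcr3, Cxcr4, the receptor of CXCL12, reached 68.4 ± 3.69 CPM in knockdown cells, against 12.3 ± 1.03 CPM in WT cells (SD, n = 3 each; log2 fold change 2.48, adjusted p = 1.78e-08), and the atypical receptor gene Ccrl2 was not called (log2 fold change -0.28, adjusted p = 0.439). The other 20 had at most 31 counts over either group, and 7 of them had none in any library.

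Among signalling genes known to act upstream of these ligands, the share called was 50% for NF-kappaB subunits and inhibitors, 55% for interferon-pathway regulators and 39.1% for Toll-like receptor signalling, beside 40.1% of all genes tested. It was 37.5% for message stability and 28.6% for sheddases and peptidases, and none of these lists is set apart by these shares. Of 14 NF-kappaB subunits and inhibitors 5 were lower and 2 higher (1 higher without WT C). Nfkbia, the inhibitor IkappaB alpha and itself a target of NF-kappaB, fell to 23.7 ± 0.578 CPM in knockdown cells, against 61.1 ± 7.48 CPM in WT cells (log2 fold change -1.36, SE 0.11, adjusted p = 2.25e-06), and the precursor gene Nfkb2 was lower, with a log2 fold change of -0.75 (adjusted p = 5.04e-05). Ikbkg, the regulatory subunit of the IkappaB kinase, rose (log2 fold change 0.39, SE 0.08, adjusted p = 0.00313), as did Bcl3, a nuclear cofactor (0.61, SE 0.18, adjusted p = 0.0168). Rela, the main activating subunit, was not called (log2 fold change -0.11, adjusted p = 0.309).

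Of 20 interferon-pathway regulators 7 were lower and 4 higher, 4 of the lower ones at an adjusted p under 0.01. Irf7, the interferon-amplifying transcription factor, fell to 10.8 ± 2.10 CPM in knockdown cells, against 232 ± 15.6 CPM in WT cells (log2 fold change -4.44, SE 0.13, adjusted p = 1.39e-09), and Usp18, a brake on interferon receptor signalling, was at 11.3 ± 1.80 CPM in knockdown cells and 104 ± 7.26 CPM in WT cells (SD, n = 3 each; adjusted p = 8.41e-09). The interferon receptor genes Ifnar1 (log2 fold change 0.76, SE 0.08, adjusted p = 2.16e-05) and Ifnar2 (0.87, SE 0.09, adjusted p = 2.67e-05) rose. Irf1 and Irf3, other factors of this family, were not called, with log2 fold changes of -0.28 (adjusted p = 0.084) and -0.16 (adjusted p = 0.113).

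Of 23 tested Toll-like receptor signalling genes 6 were lower and 3 higher. The lipopeptide receptor genes Tlr2 (log2 fold change -0.99, SE 0.09, adjusted p = 1.04e-05) and Tlr1 (-1.33, SE 0.23, adjusted p = 0.000755) fell, while the kinase gene Irak2 (0.51, SE 0.11, adjusted p = 0.00257) and Tlr13, a sensor of bacterial ribosomal RNA (0.98, SE 0.23, adjusted p = 0.00526), rose. Of 8 tested genes that control the stability of cytokine and chemokine messages 3 were lower and 0 higher (2 higher with library totals). Of the lower ones Zc3h12a was close to the threshold (adjusted p = 0.0456). The lower ones numbered 2 with DESeq2 in place of edgeR, upper-quartile or library-total scaling, a replicate block or a threshold of 0.01. They also numbered 2 with a filter of 1 count in any library, and leaving out single libraries gave 2 or 3. Zfp36, which encodes tristetraprolin and speeds decay of AU-rich messages, fell to 27.4 ± 5.36 CPM in knockdown cells, against 69.4 ± 11.2 CPM in WT cells (log2 fold change -1.34, SE 0.15, adjusted p = 3.06e-05), and its relative Zfp36l2 also fell (log2 fold change -1.17, adjusted p = 3.52e-07). Of 7 tested sheddases and peptidases 1 was lower, Mmp9 (log2 fold change -0.99, adjusted p = 0.00819), and 1 higher, Mmp12, the macrophage elastase (1.16, adjusted p = 0.00114). The medians of these lists were -0.23 for NF-kappaB, -0.18 for interferon-pathway regulators, -0.15 for Toll-like receptor signalling, -0.23 for message stability and -0.14 for sheddases and peptidases, beside 0.01 over all genes tested.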

How the data were processed

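RNA from 6 BV2 libraries, 3 SMEK1 knockdown and 3 WT by the genotype label, was compared. The authors deposited whole-number counts per gene and FPKM values for 54532 Ensembl genes. The genome build was GRCm38 (mm10), per the submitters' processing notes, and the sources used here do not name the aligner, the counting program or the use of strand. The deposited FPKM equalled count over gene length and a library constant, 1.02 to 1.12 times the total in the knockdown and 0.911 to 0.991 times in WT, so they carry a scaling of the authors.

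Counts were filtered with filterByExpr (12269 genes left), scaled by TMM and tested with edgeR 4.0.16 in R 4.3.3 (glmQLFit, glmQLFTest, no covariate). P-values were adjusted by Benjamini-Hochberg over those genes, with 0.05 as the threshold. A log2 fold change sets knockdown over WT, SE is the fold change over the root of F, and intervals are 95%. CPM are TMM-scaled. Levels are compared between genes by FPKM. Paired-member ratios were tested by exact permutation. The fit was also run on simulated counts in which far fewer genes changed than were called here. That run does not check the setting of these data, and no result rests on it. The main fit did not pair libraries by the letters in their titles. Alternatives were other scalings, filters, DESeq2 1.42.0, limma 3.58.1 (voom, or log2 FPKM with a mean of at least 0.5), a stricter threshold, a replicate block and leaving out each library. The members were all named, and of each further list up to 2 genes per direction with the smallest adjusted p, plus those a result touches. Members and lists were chosen with earlier results of these data known. Rela, Irf1, Irf3, Ccrl2, Ccl24, Adam10 and Adam17 were added after their values were seen. The values of 1 receptor gene are not reported here.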

Additional observations from a re-analysis of the deposited data

How the results depend on the processing

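The calls of Ccl2, Ccl4 and Ccl5 held under all 16 alternatives and that of Cxcl10 under all 14 that tested it, with adjusted p-values of at most 0.000194, 0.0092, 0.000498 and 0.00402. Log2 fold changes ranged from -1.35 to -1.11 for Ccl2, 0.46 to 0.68 for Ccl4, -3.35 to -1.78 for Ccl5 (the smallest with log2(FPKM + 1), a scale that compresses low values) and -3.05 to -2.40 for Cxcl10. Members called higher numbered 3 with library totals and 2 with limma on log2(FPKM + 1) or log2(FPKM + 0.1), against 1, the added genes being Ccl7 and, with library totals, Ccl3. Library totals moved the median of all genes by 0.159 and gave 71.3% of calls as higher, against 51.1%, and turned the sign of Ccl6 (0.0076). Ccl3 had values of -0.0289 to 0.105 when libraries were left out in turn, so its sign is not determined. At a threshold of 0.01 the calls over all genes numbered 3181, against 4918, and leaving out single libraries gave 3703 to 4870. With a replicate block 1 member was called higher, 3 lower and 3326 genes in all. Same-letter libraries deviated from their group means with correlations of -0.471, -0.459 and -0.00838. Deviations cancel out within a group, so these correlations depend on each other and cannot decide whether the letters mark pairs. Between different letters the correlations ran from -0.176 (knockdown B with WT C) to 0.530 (knockdown B with WT A). What such libraries share was not tested. Ratios to Ccl12 and Cxcl16 were not run because of 0 counts. Among the further lists, interferon-pathway regulators called lower numbered 4 with the block or at 0.01, NF-kappaB genes called higher 1 with the block, at 0.01 or without WT C, sheddases called higher 2 with library totals, and other ligands called higher 2 at 1 count in any library. Depth limits Ccl12 and Cxcl16, and gives the falls of Ccl5 and Cxcl10 wide intervals.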

Other observations

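Cx3cl1, the membrane-bound ligand of CX3CR1, was below the level for testing, with 5, 15 and 9 counts across the knockdown libraries, against 2, 1 and 2 across the WT libraries. Every knockdown library was above every WT library, beside 50.9% of all genes tested whose groups did not overlap. Its receptor gene Cx3cr1, also too low to be tested, had 29 counts over the knockdown and 12 over WT. Nothing is read from these few counts.

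The tested genes whose log2 CPM followed Ccl5 most closely over the 6 libraries were Cd52, Rps2-ps13, Tmem173, which encodes the DNA-sensing adaptor STING, Thra and Disc1, with Pearson r of 0.998 to 0.999. Cd52 had a mean of 20.3 CPM in knockdown cells and 52.4 CPM in WT cells, and Tmem173 had 46.7 CPM in knockdown cells and 135 CPM in WT cells. For Ccl4 they were Egfl7, Fam171a2, Hectd2os, Ehd2 and Lyrm7, with r of 0.991 to 0.997. These values are descriptions: the points fall in 2 groups, and 931 genes for Ccl5 and 308 for Ccl4 had an r above 0.95.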
